A study of Mus musculus with 12 samples.

Results

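The genes described here encode the nuclear subunits of the 4 respiratory complexes and of ATP synthase in mouse embryonic stem cells that were left undifferentiated or allowed to differentiate for up to 4 days. They were taken by name: every non-control probe whose gene name begins with Nduf, Cox4 to Cox8, Uqcr or Atp5, or is Sdha, Sdhb, Sdhc, Sdhd, Cyc1 or Cycs. This gave 133 of the 41174 non-control probes on the array, for 91 genes, and 89 of those genes were among the 17552 tested. The remaining 2, Cox4i2 and Cox8b, were well above background on 2 and 1 of the 12 arrays and were not tested. The names also bring in 5 assembly factors of complex I (Ndufaf1 to Ndufaf4 and Dmac2) and 2 genes outside the complexes, Emc8, a subunit of an endoplasmic reticulum membrane complex that the array calls Cox4nb, and Dmac2l, called Atp5s.

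All cells were embryonic stem cells of mouse strain 129. There were 6 groups of 2 arrays: undifferentiated cells (titled LIF), embryoid bodies (EB) at days 1, 3 and 4, in which the cells differentiate as floating aggregates, and monolayers (ML) at days 1 and 3. The 2 samples of a group are labelled clone #1 and clone #2, and according to the series they are 2 independent experiments done by different people; they are called replicates 1 and 2 here. LIF is a cytokine used to keep such cells undifferentiated; the labels name no other agent and no altered gene.

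Oxidative phosphorylation runs in the inner mitochondrial membrane. Complex I takes electrons from NADH and complex II takes them from succinate, complex III passes them to cytochrome c and complex IV passes them to oxygen, and ATP synthase uses the proton gradient that complexes I, III and IV build to make ATP. A few subunits are encoded in mitochondrial DNA and all the others in the nucleus, where the transcription factors NRF1, GABPA and YY1 are known to bind many of their promoters. Pluripotent cells are known to make much of their ATP by glycolysis and to have small, immature mitochondria, and several complex IV subunits have paralogues used in muscle or in testis.

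RefSeq start-site windows on build GRCm38.p6, each of 300 bases with 250 before the start and 50 after it, were matched for 75 of the 91 genes. One form of the NRF1 motif was searched, 10 bases given by the capitals in the first stretch below, which read the same on both strands. It stood in the windows of 6 of those 75 genes (8%) against 1.07% of all 27025 genes with a window. The YY1 letters AAGATGGC, on either strand, stood in 11 (14.7%) against 3.19%, and the GABPA letters CCGGAAGT in 5 (6.67%) against 4.31%; no match of one motif overlapped a match of another. Of the members that were higher on ML day 1 (below), 4 of 37 with a window held these NRF1 letters, and of those not called there 2 of 37 did. A match describes the letters and is no evidence of binding. The stretches of 60 bases that follow lie wholly before the start site. They are shown because they hold the motif, in capitals, of the 5 members whose NRF1 match lies there and, for comparison, of 2 members with a GABPA match (on the reverse strand in Atp5h).
Atp5g2, chr15:102671055-102671114, minus strand: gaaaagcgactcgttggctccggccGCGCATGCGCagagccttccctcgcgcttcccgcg
Atp5k, chr5:108434415-108434474, minus strand: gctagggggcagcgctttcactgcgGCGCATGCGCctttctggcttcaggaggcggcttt
Ndufa11, chr17:56717677-56717736, plus strand: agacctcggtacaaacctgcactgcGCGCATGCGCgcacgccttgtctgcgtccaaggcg
Ndufaf4, chr4:24897945-24898004, plus strand: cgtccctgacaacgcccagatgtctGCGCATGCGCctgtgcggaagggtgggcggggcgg
Cox6a1, chr5:115349086-115349145, minus strand: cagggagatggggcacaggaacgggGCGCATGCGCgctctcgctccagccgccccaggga
Atp5h, chr11:115419925-115419984, minus strand: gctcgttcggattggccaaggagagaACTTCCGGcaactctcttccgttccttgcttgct
Uqcr11, chr10:80406854-80406913, minus strand: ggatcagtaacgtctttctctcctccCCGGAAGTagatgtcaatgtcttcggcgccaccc
On ML day 1 the log2 changes against undifferentiated cells were 0.62 for Atp5g2, 0.89 for Atp5k, 0.85 for Ndufa11, 1.08 for Ndufaf4 and 1.09 for Atp5h, all of them passing the test described next. Those of Cox6a1, at 0.04, and Uqcr11, at 0.87, did not pass.

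Levels are log2 of the scanner software's processed signal minus the 75th percentile of that array, so that 1 unit is a factor of 2, and a member was called where limma's Benjamini-Hochberg adjusted p over all 17552 genes was under 0.05. Values are given per array, and errors are standard errors of the model. Between 52.1% and 63.8% of spots per array were well above background. With 2 arrays per group, p-values measure the spread between these samples. The arrays were hybridised and scanned in blocks that follow the groups: the undifferentiated arrays share slide 1 and scan day 1, EB days 1 and 3 share slide 2, ML days 1 and 3 share slide 4, both scanned on day 2, and EB day 4 lies on slide 3, scanned on day 3 on another scanner. Any difference from undifferentiated cells, or between EB day 4 and EB day 3, therefore cannot be told apart from slide and scan day. A difference between EB and ML of the same day cannot be told apart from slide. Day 3 against day 1 lies within a slide. Markers of cell identity mostly moved with the labels. Of 6 embryonic stem cell markers, 6 were lower on EB day 4 than in undifferentiated cells (22.2% of all genes) and 5 on ML day 3 (10.8%). On EB day 1 and ML day 1, 2 were lower (5.45% and 6.41%). Of 4 epiblast markers, 4 were higher on EB day 1 (8.09%), Fgf5 by 5.80 on the log2 scale, and 3 on ML day 1 (11.6%). Of 6 primitive streak and endoderm markers, 6 were higher on EB day 3 than on EB day 1 (3.13%). In ML, 3 of those 6 were higher on day 3 than on day 1 (5.77%). Sox17 and Gata6 averaged -2.73 and -2.13 on ML day 3, against -2.33 and -1.8 in undifferentiated cells. Of 7 feeder fibroblast markers 5 were tested, and all 5 were well above background in the undifferentiated samples. Of these, 3 were lower on EB day 1 (5.45% of all genes), 1 on ML day 1 (6.41%) and 4 on EB day 3 (10.8%). On ML day 3 (10.8%) and EB day 4 (22.2%), 3 each were lower. The summed linear signal of the 5 was 37.7 and 22.3 times the 75th percentile in undifferentiated cells and 23.3 and 22.0 on EB day 4. It ranged from 7.61 to 17.6 on the 8 arrays of the other groups. Fn1 was the brightest of the 5 on EB day 4, with log2 levels of 4.12 and 3.71 against 2.79 and 3.08 in undifferentiated cells. Its change was the 1 positive estimate there, and 4 were negative. Col1a2 read 3.65 and 2.40 in undifferentiated cells and -0.27 and -0.06 on EB day 4. The part of the feeder markers in the results below was not tested.

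On the first day of differentiation many members stood higher than in undifferentiated cells. On EB day 1, 26 of 89 members were higher and 0 lower, when 8.09% of all genes were higher, 5.45% lower and 13.5% called in either direction. The median log2 change was 0.50 for members and 0.09 for all genes. On ML day 1, 41 of 89 were higher and 0 lower, against 11.6% and 6.41% of all genes (18.0% in either direction), with medians of 0.61 and 0.14. The rises were modest, from 1.5-fold for Ndufb9 to 3.36-fold for Cox7b2 on ML day 1. These are bulk RNA samples, so more cells of a type and more RNA per cell cannot be told apart. The same undifferentiated arrays serve all of these comparisons.

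By day 3 fewer members were called against undifferentiated cells than on day 1, and on EB day 4 fewer again. In each of these comparisons, those of day 1 included, most members were not called. With 2 arrays per group that does not show them to be unchanged. On EB day 3, 19 members were higher and 3 lower (13.0% and 10.8% of all genes; 23.7% in either direction) with a median of 0.37 against 0.05 for all genes. On ML day 3, 20 were higher and 2 lower (12.6% and 10.8%; 23.4% in either direction), with medians of 0.32 and 0.03. On EB day 4, 8 were higher and 4 lower, when 40.9% of all genes were called (18.8% higher and 22.2% lower), and the medians were 0.07 and -0.05. On that day the share of members called lay below that of all genes.

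**Figure D1:**
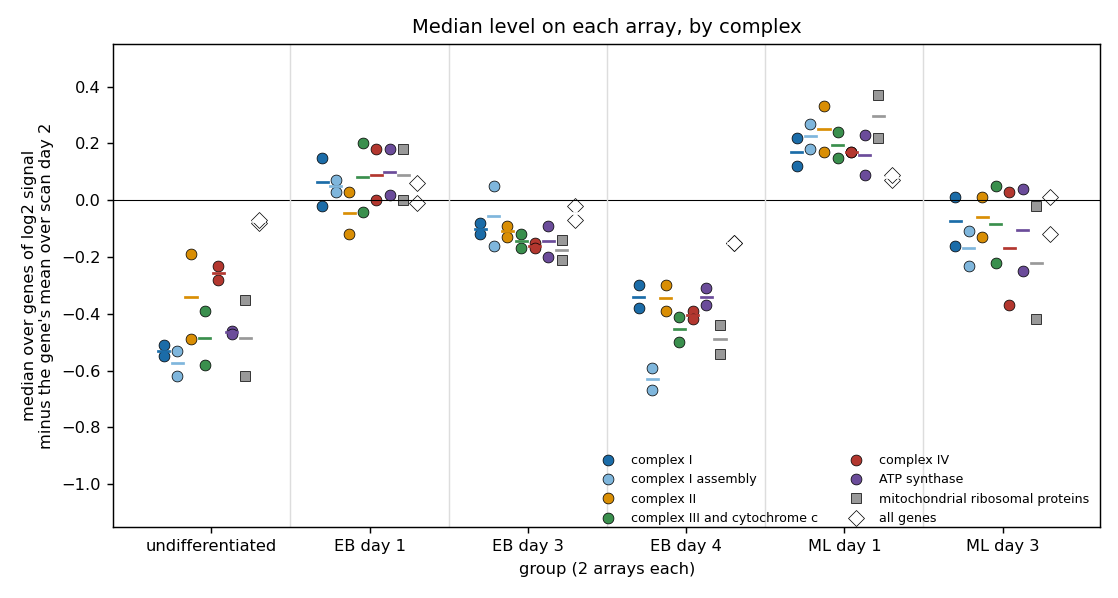
Median level on each array after each gene's mean over the 8 arrays of scan day 2 was subtracted (log2), by complex, with mitochondrial ribosomal proteins and all genes for comparison; points are arrays and short bars are the means of 2. The points of all 6 classes lie below 0 on the undifferentiated and EB day 4 arrays and above 0 on the ML day 1 arrays, while the all-gene points stay between -0.15 and 0.09.

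The array medians show the shape of this pattern. After each gene's mean over the 8 arrays of scan day 2 was subtracted, the members' median was -0.46 and -0.42 on the undifferentiated arrays and -0.37 and -0.41 on the EB day 4 arrays. It was 0.16 and 0.00 on EB day 1, 0.12 and 0.23 on ML day 1, -0.14 and -0.10 on EB day 3 and -0.23 and 0.01 on ML day 3. The 8 arrays of scan day 2 all lay above the 4 arrays of the other scan days. For 30 of 89 members (33.7%) each of those 8 arrays exceeded each of the other 4, against 5.53% of all genes. This was counted on the 75th percentile scaling alone. Mitochondrial ribosomal proteins followed a similar course, with a median of 0.66 on EB day 1 and 0.86 on ML day 1 and 39 of 75 higher on ML day 1. Cytosolic ribosomal proteins followed a shallower one, with 0.36 on both and 9 of 82 higher on ML day 1. Of all genes 11.6% were higher on that day. These ribosomal lists were taken after values had been seen. The members are bright: before the subtraction their median level ran from 4.47 to 5.21 on the 12 arrays, above each array's 95th percentile. The part of the upper end's movement, given next, in the members' changes was not tested. The upper end of the signal distribution moved as well: the 95th percentile lay 3.68 and 3.59 log2 units above the 75th on the undifferentiated arrays, 3.74 and 3.71 on EB day 4, 3.99 and 3.87 on EB day 1, 3.97 and 4.09 on ML day 1, 3.82 and 3.79 on EB day 3 and 3.72 and 3.86 on ML day 3.

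**Figure D2:**
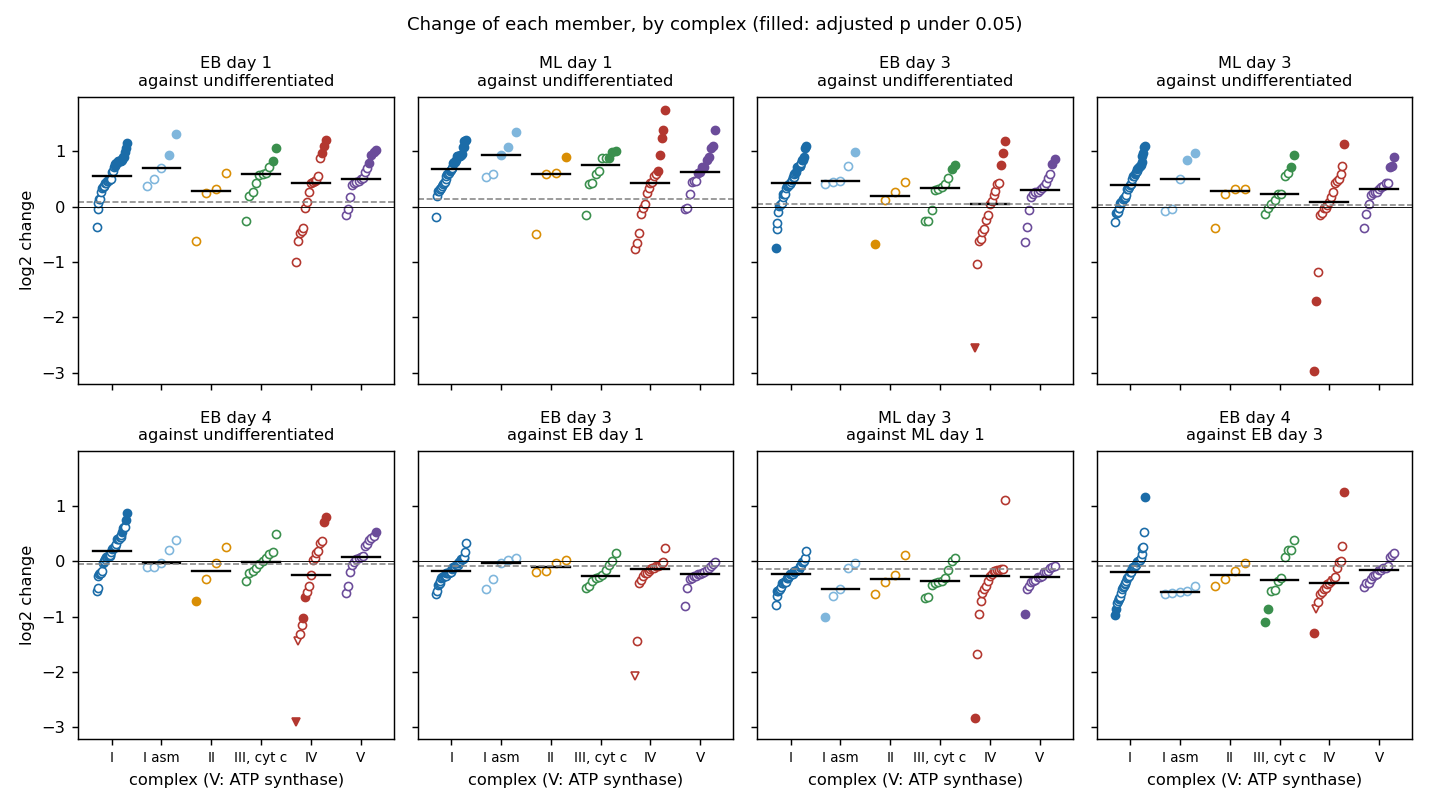
Log2 change of each tested member in 8 comparisons, by complex (I asm, assembly factors of complex I; V, ATP synthase); filled points have an adjusted p under 0.05, triangles rest on a group that was not well above background, black bars are medians and the dashed line is the median of all genes. Against undifferentiated cells 0 members were called lower on both first days, and on ML day 3 the members called lower are in complex IV.

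The number of calls depends on how the arrays are put on one scale. With quantile normalization, which gives every array the same distribution, 4 members were higher and 1 lower on EB day 1, 9 higher and 2 lower on ML day 1, and 8 higher and 7 lower on EB day 4. It called 11.2%, 13.1% and 42.6% of all genes in these comparisons. The members' medians were then 0.22, 0.24 and 0.05, and 0.20 on EB day 3 and 0.15 on ML day 3. On EB day 3 this scaling gave 13 higher and 3 lower, and on ML day 3 it gave 11 higher and 2 lower. It called 23.4% and 23.6% of all genes there. Under it the counts were not smaller on day 3 than on day 1. In each of these comparisons the share of members called then lay below that of all genes. The all-gene medians under it were 0.05 on EB day 1 and 0.04 on ML day 1. The members higher under both scalings on EB day 1 were Ndufa4, Ndufab1, Ndufaf2 and Ndufs8, and on ML day 1 Ndufa4, Ndufaf2, Ndufs3, Ndufs8, Atp5e, Atp5g1, Atp5h, Cox7b2 and Emc8. With normexp background correction 8 members were higher and 8 lower on EB day 4. Of the 134 calls over all comparisons, 11 held without each array in turn: Ndufaf2 on ML day 1, Ndufa4, Ndufaf2, Ndufb3 and Ndufs4 on EB day 3, and Atp5h, Cox7a1, Ndufa2, Ndufa4, Ndufs4 and Ndufs8 on ML day 3. On EB day 1 there were 0 calls without replicate 1 of that group and 1 without its replicate 2, while dropping undifferentiated replicate 2 left 4 and dropping undifferentiated replicate 1 left 18. On ML day 1 there were 2 without either array of that group, 9 without undifferentiated replicate 2 and 31 without undifferentiated replicate 1. The count on EB day 3 fell to 6 and 4 without its own replicates 1 and 2, and to 13 and 8 without those of undifferentiated cells. On ML day 3 it fell to 9 without undifferentiated replicate 2. On EB day 4 it fell to 0 and 3 without its own replicates 1 and 2, and to 7 and 4 without those of undifferentiated cells.

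**Figure D3:**
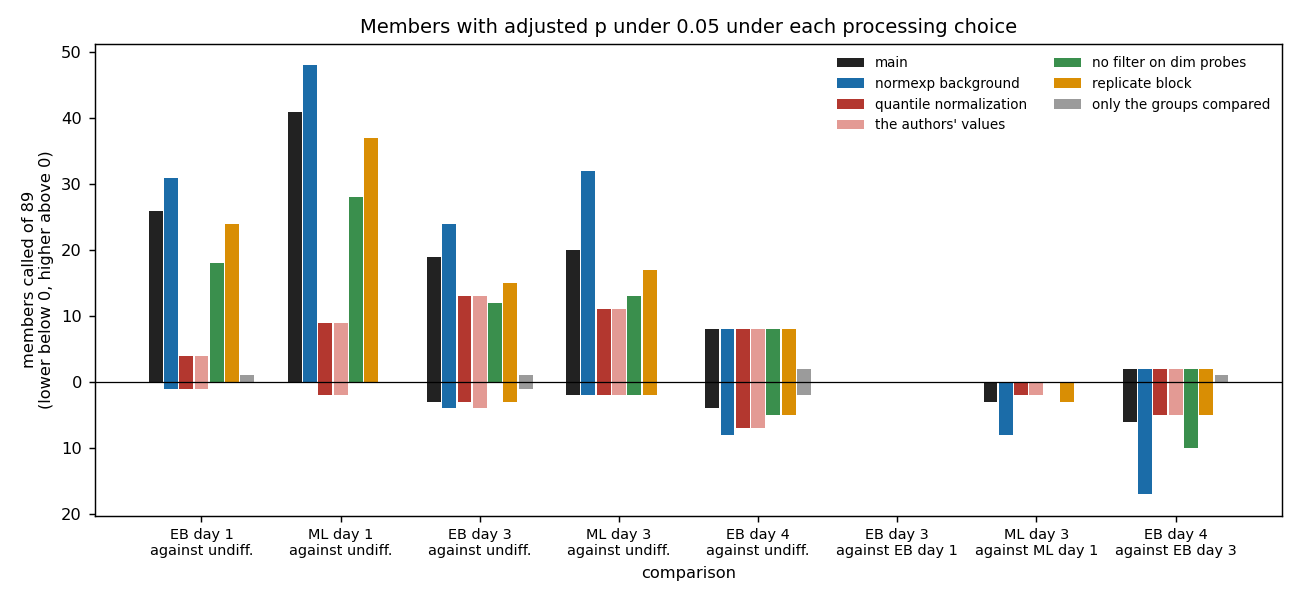
Number of the 89 members called higher (above 0) or lower (below 0) in 8 comparisons under the main processing and 6 alternatives. Quantile normalization and the authors' own values give 9 higher members on ML day 1 where the main processing gives 41.

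Complex I, the entry point for NADH electrons and the complex with the most subunits, had 36 tested members. On EB day 1, 14 were higher, and on ML day 1, 19, with medians of 0.56 and 0.67. The shares of all genes higher were 8.09% and 11.6%. On EB day 3, 11 were higher, on ML day 3, 12 were higher, and on EB day 4, 5 were higher with a median of 0.19. The shares of all genes higher there were 13.0%, 12.6% and 18.8%. On EB day 4 the share of complex I, 13.9%, lay below that of all genes. Its 7 core subunits, which carry the flavin, the iron-sulphur clusters and the quinone site, had medians of 0.47 on EB day 1 and 0.64 on ML day 1, and its 29 accessory subunits had medians of 0.64 and 0.69.

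Among the core subunits the levels took different courses. Ndufs3, in the arm that protrudes into the matrix, read 3.41 and 3.53 in undifferentiated cells, 4.44 and 4.20 on EB day 1, 4.22 and 4.39 on EB day 3, 4.40 and 4.26 on EB day 4, 4.52 and 4.81 on ML day 1 and 4.07 and 4.33 on ML day 3. Both undifferentiated arrays lay below all 10 others. The changes of 0.85 ± 0.21 (SE) on EB day 1, 1.20 ± 0.21 on ML day 1 and 0.87 ± 0.21 on EB day 4 were called (limma adjusted p 0.0288, 0.00964 and 0.00927). Ndufs8, which holds iron-sulphur clusters near the quinone site, read 0.81 and 1.03 in undifferentiated cells, 2.13 and 2.00 on EB day 1, 1.68 and 1.60 on EB day 3, 0.95 and 0.37 on EB day 4, 2.05 and 2.17 on ML day 1 and 2.00 and 1.99 on ML day 3. Its 8 arrays from days 1 and 3 did not overlap the other 4, with a rise of 2.21-fold on EB day 1 and 2.28-fold on ML day 1 (limma adjusted p 0.0158 and 0.0127).

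Ndufs1, the largest subunit of the NADH arm, read 4.76 and 4.44 in undifferentiated cells, 4.85 and 4.62 on EB day 1, 4.80 and 5.08 on ML day 1 and 4.15 and 4.08 on EB day 4, and passed no test against undifferentiated cells. Ndufv1, which binds NADH, changed by 0.27 on EB day 1 and 0.44 on ML day 1 and was not called, and neither was the accessory subunit Ndufa9, at 0.06 and 0.31.

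Accessory subunits were 29 of the 36 tested members of complex I. They accounted for 12 of its 14 calls on EB day 1 and 16 of its 19 on ML day 1, near that share. Ndufab1, the mitochondrial acyl carrier protein, read 3.75 and 3.84 in undifferentiated cells, 4.93 and 4.77 on EB day 1, 4.80 and 4.95 on ML day 1, 4.79 and 4.49 on EB day 3, 4.32 and 4.65 on ML day 3, and 4.05 and 3.71 on EB day 4, where it overlapped the undifferentiated arrays. Ndufs4, needed for a stable NADH arm, was higher by 0.77 on EB day 1, 0.91 on ML day 1, 1.1 on EB day 3 and 1.09 on ML day 3, with levels of 5.44 and 5.42 on EB day 3 against 4.25 and 4.40 in undifferentiated cells. The EB day 3 change had a limma adjusted p of 0.00323. Ndufb8 rose by 0.83 on EB day 1 and 0.91 on ML day 1, Ndufa5 by 0.98 and 1.18, Ndufb3 by 0.89 and 1.08 and Ndufa2 by 0.89 and 0.92.

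Ndufb2 and Ndufb7 were the accessory subunits higher in each of the 5 comparisons with undifferentiated cells, which share those controls. Ndufb2 read 4.56 and 4.47 in undifferentiated cells and at most 5.42 on the other 10 arrays. Ndufb7 read 5.02 and 5.04 against 5.61 to 6.03. Neither gene's undifferentiated arrays overlapped any other array. With quantile normalization Ndufb7 was called in none of the 5 comparisons, and Ndufb2 on EB day 3 and EB day 4 alone. With the mean of a gene's probes Ndufb2 was not called on EB day 1 or ML day 1. Ndufb11, another membrane-arm subunit, was called on EB day 4 (0.61 ± 0.20, limma adjusted p 0.0359) and on no other day.

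The assembly factors of complex I are not part of the finished enzyme. Of these, 2 of 5 were higher on EB day 1 (8.09% of all genes) and 3 of 5 on ML day 1 (11.6%). Ndufaf2 read 2.87 and 2.60 in undifferentiated cells, 4.13 and 3.99 on EB day 1, 4.04 and 4.13 on ML day 1, 3.75 and 3.71 on EB day 3, 3.64 and 3.53 on ML day 3 and 3.22 and 3.04 on EB day 4. It had the largest rise of any member on EB day 1, 2.50-fold (1.32 ± 0.19, limma adjusted p 0.00616), and 2.55-fold on ML day 1. Ndufaf4 rose by 1.08 on ML day 1 and Dmac2 by 0.94 on EB day 1 and 0.93 on ML day 1. Emc8, outside the complexes, rose by 1.21 on EB day 1 and 1.71 on ML day 1, from 3.15 and 2.31 in undifferentiated cells to 4.19 and 3.69 and to 4.46 and 4.43.

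Complex II, succinate dehydrogenase, is also an enzyme of the citric acid cycle and has 4 subunits, all nuclear. On both first days the change of Sdha had the opposite sign to those of the other 3 subunits. Sdha, the flavoprotein that oxidises succinate, read 2.37 and 2.51 in undifferentiated cells, 1.89 and 1.75 on EB day 1, 1.77 and 2.12 on ML day 1, 1.79 and 1.77 on EB day 3, 1.97 and 2.15 on ML day 3 and 1.76 and 1.72 on EB day 4. Both undifferentiated arrays lay above the other 10, and the change was called on EB day 3 (-0.67 ± 0.19, limma adjusted p 0.0360) and EB day 4 (-0.71 ± 0.19, limma adjusted p 0.0174). Without any one array of the comparison the EB day 3 call was lost, and the EB day 4 call was lost without undifferentiated replicate 2 or either EB day 4 array.

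Sdhd, a membrane anchor, rose on ML day 1 by 0.90 ± 0.19 (limma adjusted p 0.0170), from 3.99 and 4.12 to 4.82 and 5.10. The iron-sulphur protein Sdhb changed by 0.32 on EB day 1 and 0.58 on ML day 1, and the other anchor Sdhc by 0.25 and 0.61; neither was called. On EB day 4 the 4 subunits stood at -0.71 (Sdha), -0.32 (Sdhb), -0.04 (Sdhc) and 0.26 (Sdhd), of which the first alone was called.

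Complex III and cytochrome c had 10 tested members. On EB day 1, 2 were higher (8.09% of all genes), and on ML day 1, 3 (11.6%). Cycs, the somatic cytochrome c that shuttles electrons to complex IV, read 5.44 and 5.07 in undifferentiated cells, 6.33 and 6.27 on EB day 1, 6.17 and 6.33 on ML day 1, 6.04 and 5.98 on EB day 3, 5.59 and 6.14 on ML day 3 and 5.02 and 4.79 on EB day 4. It doubled on EB day 1 (2.06-fold, limma adjusted p 0.0235) and ML day 1 (2.00-fold, limma adjusted p 0.0235), and the EB day 4 arrays lay below both undifferentiated ones by an amount that was not called. Uqcrb, a small subunit at the quinone site, had 3.95 and 4.14 in undifferentiated cells, 4.83 and 4.93 on EB day 1, 4.88 and 4.95 on ML day 1, 4.67 and 4.78 on EB day 3, 4.63 and 4.89 on ML day 3 and 3.84 and 3.89 on EB day 4. Its 4 arrays from undifferentiated cells and EB day 4 lay below the other 8. Uqcrq, another small subunit, was called on ML day 3 (0.94 ± 0.29, limma adjusted p 0.0451), with 7.54 and 6.79 against 6.44 and 6.01.

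The catalytic subunits of complex III passed no test against undifferentiated cells. Cyc1, which carries cytochrome c1, changed by 0.19 on EB day 1, 0.43 on ML day 1 and -0.05 on EB day 4. The Rieske protein Uqcrfs1 changed by 0.26, 0.40 and -0.12. The core proteins Uqcrc1 and Uqcrc2 changed by 0.42 and -0.26 on EB day 1 and by 0.59 and -0.15 on ML day 1, and Uqcrc2 read 5.05 and 5.34 in undifferentiated cells against 5.29 and 5.36 on EB day 4.

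Complex IV, cytochrome c oxidase, had 17 tested members and most of the isoform pairs. On EB day 1, 3 were higher (8.09% of all genes), and on ML day 1, 5 (11.6%). On EB day 3, 3 were higher and 1 lower (13.0% and 10.8%). On ML day 3, 1 was higher and 2 lower (12.6% and 10.8%), and on EB day 4, 2 were higher and 3 lower (18.8% and 22.2%). In these last 3 groups 23.5%, 17.6% and 29.4% of complex IV were called. Those shares did not exceed the 23.7%, 23.4% and 40.9% of all genes. Ndufa4, first named as a complex I subunit and now counted in complex IV, read 4.73 and 4.54 in undifferentiated cells, 5.88 and 5.78 on EB day 1, 6.08 and 5.95 on ML day 1, 5.71 and 5.93 on EB day 3, 5.58 and 5.96 on ML day 3 and 5.45 and 5.21 on EB day 4. Its undifferentiated arrays lay below the other 10, and it was higher by 1.20 ± 0.21 on EB day 1, 1.38 ± 0.21 on ML day 1, 1.19 ± 0.21 on EB day 3, 1.13 ± 0.21 on ML day 3 and 0.70 ± 0.21 on EB day 4 (limma adjusted p 0.0117, 0.00746, 0.00503, 0.00623 and 0.0259). Cox7c, a small structural subunit, rose 1.96-fold on EB day 1 and 1.90-fold on ML day 1.

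Of Cox4i1, Cox5a, Cox5b and Cox6c, structural subunits around the catalytic core, none was called on EB day 1 and Cox5b was called on ML day 1. Cox4i1 changed by 0.46 on EB day 1 and 0.56 on ML day 1 and Cox6c by 0.45 and 0.34, none of them called; Cox5b rose on ML day 1 by 0.64 ± 0.17 (limma adjusted p 0.0322). Cox5a read 6.75 and 6.83 in undifferentiated cells, 7.11 and 6.99 on EB day 1, 6.94 and 7.14 on ML day 1, 6.65 and 6.64 on EB day 3, 6.50 and 7.02 on ML day 3 and 6.25 and 6.06 on EB day 4. The EB day 4 arrays were the lowest, and their change of -0.64 ± 0.22 was called (limma adjusted p 0.0403), though not without any one of the 4 arrays compared.

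Each isoform was read by its own probe. Probes were compared with each other and not with the transcripts of paralogues, so binding to a paralogue was not tested. The 60-base probes of paralogues shared runs of at most 8 bases (Atp5g1 with Atp5g3), and 30-base stretches of the probes of the Cox7a family, as the array files give them, are shown with the longest run shared with another member of the family in capitals; positions of the whole probe are on mm9, as in the files.
Cox7a1, chr7:30970337-30970948, plus strand: tgactctggggggcactgcctACTGCTtat
Cox7a2, chr9:79603227-79603286, minus strand: attgatgtgtattaACTGCTgccaataaag
Cox7a2l, chr17:83901834-83901893, minus strand: tggatagtctacTTAACattttgcaaacaa
These 3 genes took 3 different courses, as the plot of members by array shows. Cox7a1, the heart and skeletal muscle isoform, read 2.85 and 3.76 in undifferentiated cells, 2.87 and 2.86 on EB day 1, 2.74 and 2.62 on EB day 3, 2.36 and 2.19 on EB day 4, 2.51 and 2.58 on ML day 1 and 1.45 and 1.74 on ML day 3. The ML day 3 arrays were the lowest of the 12, at -1.71 ± 0.28 or 3.27-fold lower than undifferentiated cells (limma adjusted p 0.00382), and the EB day 4 arrays were next at -1.03 ± 0.28 (limma adjusted p 0.0170). The EB day 4 call was lost without undifferentiated replicate 2 or either EB day 4 array. The ML day 3 call held without each array in turn. Of 9 markers of cardiac or skeletal muscle 8 were tested. Of these, 3 were higher and 2 lower on EB day 4 (18.8% and 22.2% of all genes), and 1 was higher and 1 lower on ML day 3 (12.6% and 10.8%). Their summed signal was 5.28 and 5.84 times the 75th percentile in undifferentiated cells, 5.87 and 5.07 on EB day 1, 7.98 and 14.4 on EB day 3, 19.9 and 19.8 on EB day 4, 8.90 and 8.90 on ML day 1 and 7.14 and 6.96 on ML day 3. Both EB day 4 sums were the highest. Myl7 was the brightest of the 8 there, with log2 levels of 3.86 and 3.25 against 0.86 and 1.22 in undifferentiated cells. Of the 8 changes on EB day 4, 3 were positive and 5 negative. Their part in the Cox7a1 result was not tested.

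Cox7a2, the isoform found in most tissues, read 4.86 and 4.65 in undifferentiated cells, 5.87 and 5.81 on EB day 1, 5.93 and 6.04 on ML day 1, 5.63 and 5.79 on EB day 3, 5.09 and 5.88 on ML day 3 and 5.25 and 4.97 on EB day 4. It rose 2.13-fold on EB day 1, 2.34-fold on ML day 1 and 1.94-fold on EB day 3 (limma adjusted p 0.0296, 0.0179 and 0.0301); Cox7a1 was not called in those groups. Cox7a2l, a factor that links complexes III and IV into supercomplexes, read 2.82 and 3.15 in undifferentiated cells and 2.51 to 3.21 on the 8 arrays of days 1 and 3. On EB day 4 it read 3.71 and 3.84, above every other array, a rise of 0.79 ± 0.24 over undifferentiated cells (limma adjusted p 0.0259). That call was lost without undifferentiated replicate 1 or either EB day 4 array.

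Cox8c, known from testis, read -3.55 and -2.83 in undifferentiated cells, -4.10 and -3.21 on EB day 1 and -3.71 and -2.95 on ML day 1, and then -5.32 and -6.16 on EB day 3, -6.33 and -5.84 on EB day 4 and -7.47 and -4.86 on ML day 3. It was well above background on both arrays of the first 3 groups, on neither array of EB day 3 or EB day 4, and on 1 of 2 of ML day 3. It was at least 4.56-fold lower on EB day 3 and at least 2.13-fold lower on EB day 4 than in undifferentiated cells (limma adjusted p 0.0364 and 0.0132); these bounds set the mean of the bright arrays against the lowest signal that counts as well above background, or the probe's own where that is higher. On ML day 3, with 1 of its 2 arrays well above background, the change was -2.97 ± 0.74 (limma adjusted p 0.0204). All 6 germ cell or testis markers were tested. Of these, 5 were lower on EB day 4 (22.2% of all genes), 2 on EB day 3 (10.8%) and 1 on ML day 3 (10.8%). On both arrays of EB day 4, 3 were still well above background. The summed signal of the 6 was 11.1 and 15.8 times the 75th percentile in undifferentiated cells, 3.30 and 3.61 on EB day 1, 5.32 and 4.97 on ML day 1, 3.16 and 1.78 on EB day 3, 3.11 and 4.42 on ML day 3 and 0.708 and 0.519 on EB day 4. Stra8 was the brightest of the 6 in undifferentiated cells, with log2 levels of 3.02 and 3.44, and read -1.83 and -1.89 on EB day 1. On that day 1 of the 6 was called lower. The part of the germ cell markers in the Cox8c result was not tested.

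Cox7b2, another testis isoform, read -3.89 and -4.89 in undifferentiated cells and -2.61 and -2.67 on ML day 1, a called rise of 3.36-fold (1.75 ± 0.51, limma adjusted p 0.0459). It read -3.48 and -3.57 on EB day 1, -4.11 and -5.83 on EB day 3, -4.61 and -4.00 on ML day 3 and -5.72 and -5.93 on EB day 4, where neither array was well above background. Its ubiquitous paralogue Cox7b changed by 0.56 on EB day 1 and 0.59 on ML day 1, Cox8a by 0.09 and 0.42, Cox6a1 by -0.03 and 0.04 and Cox6b1 by 0.48 and 0.45, and none of these was called. The muscle form Cox6a2 ranged from -6.66 to -2.14, with EB day 4 arrays of -6.66 and -3.88. The testis form Cox6b2 ranged from -0.86 to 1.77, with undifferentiated arrays of 0.39 and 1.77. Neither passed a test.

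**Figure D4:**
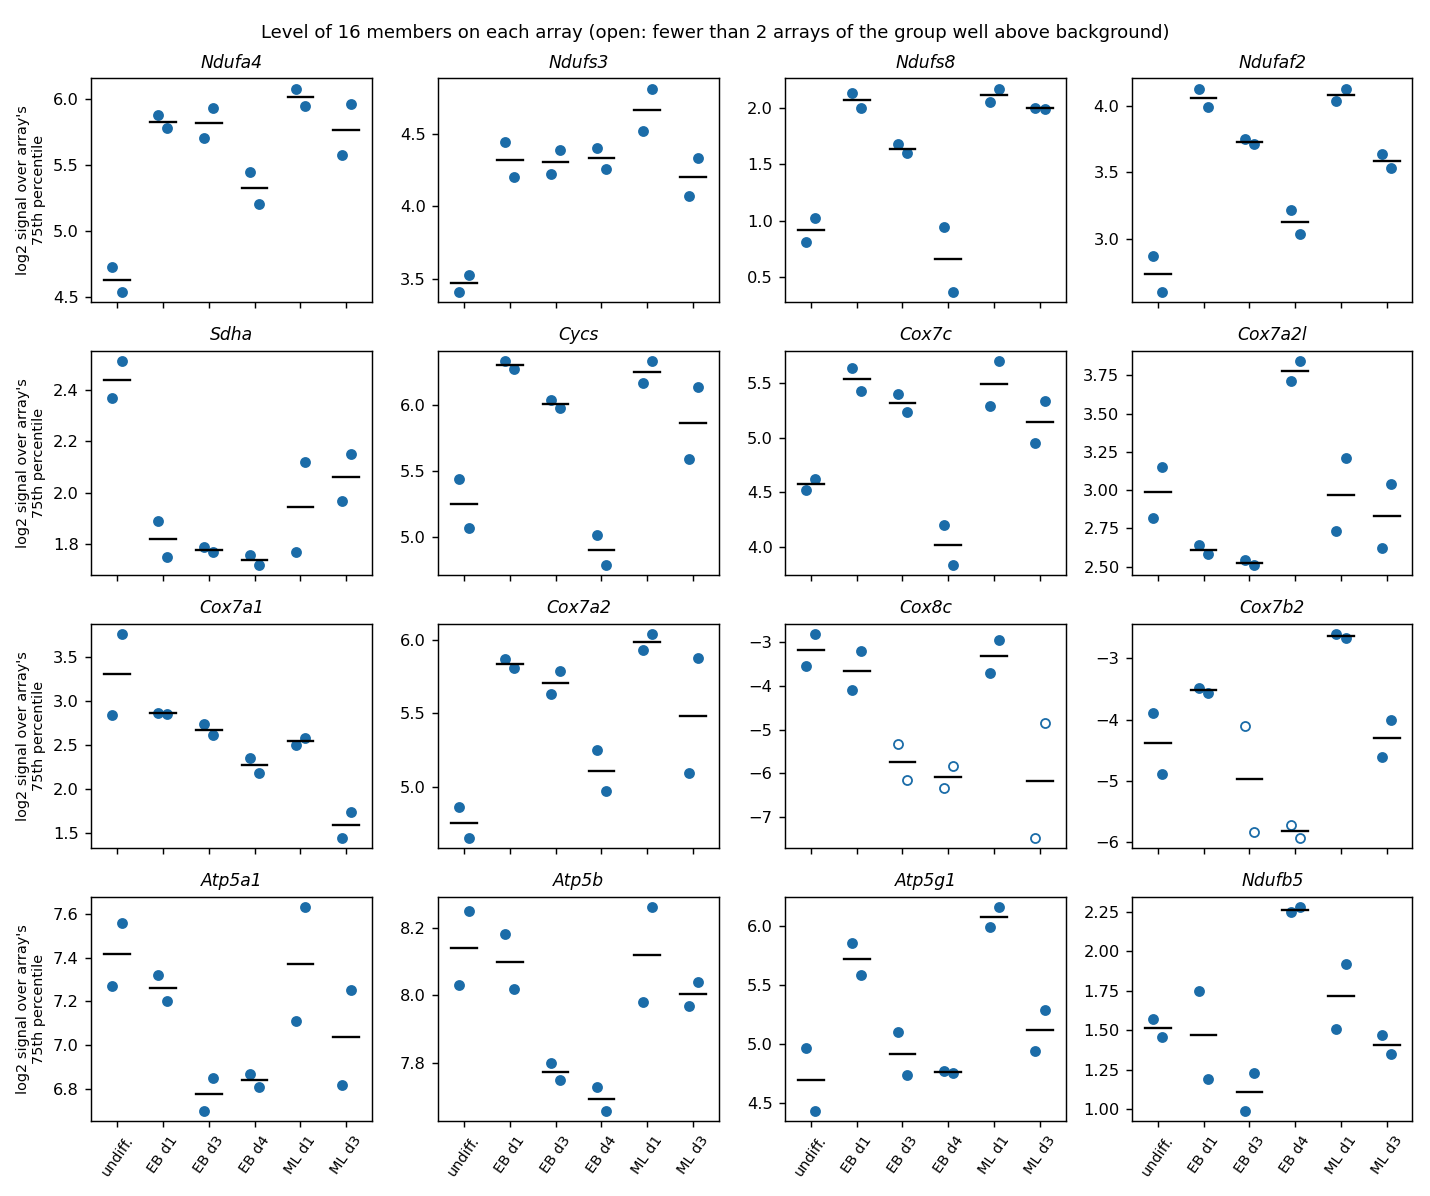
Level of 16 members on each of the 12 arrays (log2 signal over the array's 75th percentile), with black bars at group means; open points mark groups with fewer than 2 arrays well above background. Ndufa4 and Ndufs3 are lowest in undifferentiated cells, Sdha is highest there, and Cox7a2l and Ndufb5 are highest on EB day 4.

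ATP synthase had 15 tested members, with 0 lower. On EB day 1, 4 were higher, on ML day 1, 9, on EB day 3, 2, on ML day 3, 3 and on EB day 4, 1. The shares of all genes higher were 8.09%, 11.6%, 13.0%, 12.6% and 18.8%. The share of ATP synthase on EB day 3, 13.3%, was near that of all genes, and on EB day 4, at 6.67%, it lay below. The catalytic F1 subunits passed no test. Atp5b, which holds the catalytic sites, read 8.03 and 8.25 in undifferentiated cells, 8.18 and 8.02 on EB day 1, 7.98 and 8.26 on ML day 1, 7.80 and 7.75 on EB day 3, 7.97 and 8.04 on ML day 3 and 7.73 and 7.66 on EB day 4. Its partner Atp5a1 read 7.27 and 7.56, 7.32 and 7.20, 7.11 and 7.63, 6.70 and 6.85, 6.82 and 7.25, and 6.87 and 6.81 in the same order. For both genes the EB day 3 and EB day 4 arrays lay below the undifferentiated ones, by -0.37 and -0.44 for Atp5b and by -0.64 and -0.57 for Atp5a1, without reaching the threshold. The central shaft Atp5c1 changed by 0.47 on both first days and the stalk subunit Atp5o by 0.45 on both, and none was called.

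The small F1 subunit Atp5e, at the foot of the shaft, did rise, by 0.93 ± 0.19 on EB day 1 and 1.06 ± 0.19 on ML day 1 (limma adjusted p 0.0174 and 0.0106), from 5.18 and 5.43 to 6.36 and 6.12 and to 6.34 and 6.40. Atp5h, a peripheral stalk subunit, rose by 0.98 and 1.09, and read 5.55 and 5.50 in undifferentiated cells against 5.89 to 6.68 on all other arrays. The other shaft subunit, Atp5d, rose by 0.78 and 0.84.

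The 3 genes Atp5g1, Atp5g2 and Atp5g3 encode the same c-ring protein behind different import signals. Atp5g1, known as the regulated copy, read 4.96 and 4.43 in undifferentiated cells, 5.86 and 5.58 on EB day 1, 5.99 and 6.16 on ML day 1, 5.10 and 4.73 on EB day 3, 4.94 and 5.29 on ML day 3 and 4.77 and 4.75 on EB day 4. It rose on day 1, 2.03-fold in EB and 2.60-fold in ML (limma adjusted p 0.0296 and 0.0111), and on days 3 and 4 its arrays overlapped those of undifferentiated cells. Atp5g2 rose by 0.62 ± 0.18 on ML day 1 and 0.53 ± 0.18 on EB day 4 (limma adjusted p 0.0452 and 0.0408). Atp5g3 changed by 0.50 on EB day 1, 0.46 on ML day 1 and 0.39 on EB day 4 and was not called.

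Between day 1 and day 3, compared on one slide for each format, most members had negative estimates and few passed the test. In EB, 0 of 89 members were called, when 5.47% of all genes were (3.13% higher and 2.34% lower), and 6 had an unadjusted p under 0.05, all lower, as did 20.2% of all genes in either direction. Of the 89 estimates 76 were negative, with a median of -0.20 against -0.08 for all genes. Without EB day 3 replicate 1 there was 1 call. In ML, 3 members were lower and 0 higher, when 6.69% of all genes were lower and 5.77% higher (12.5% in either direction), and 82 of 89 estimates were negative with a median of -0.28 against -0.14. With quantile normalization the medians were -0.02 in EB and -0.04 in ML.

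The 3 members lower in ML were Atp5g1, from 5.99 and 6.16 to 4.94 and 5.29 (-0.96 ± 0.25, limma adjusted p 0.0367), the assembly factor Dmac2, from 2.22 and 2.39 to 0.93 and 1.65 (-1.01 ± 0.26, limma adjusted p 0.0346), and Cox8c (-2.83 ± 0.74, limma adjusted p 0.0384), for which 1 of the 2 ML day 3 arrays was well above background. In each the groups did not overlap, and in each ML day 3 replicate 1 was the lower of its pair. Across members that array read lower than its partner in 74 of 89. Without ML day 3 replicate 2 there were 15 members lower, when 26.9% of all genes were called, and without any other array of the comparison there were 0. In EB the change of Atp5g1 was -0.81 ± 0.25 (limma adjusted p 0.103).

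From EB day 3 to EB day 4, 2 members rose and 6 fell, when 3.89% of all genes rose and 8.87% fell (12.8% in either direction); the medians were -0.29 and -0.09. The members' median was -0.16 with quantile normalization. With normexp background correction 2 rose and 17 fell. Cox7c fell most among these, from 5.40 and 5.24 to 4.20 and 3.83 (-1.30 ± 0.24 or 2.47-fold, limma adjusted p 0.0113), followed by Cycs, from 6.04 and 5.98 to 5.02 and 4.79 (-1.1 ± 0.24, limma adjusted p 0.0196), and Ndufs8 (-0.98 ± 0.22, limma adjusted p 0.0253). Uqcrb and Ndufa6, an accessory subunit of the LYR family, each fell by 0.86, and Ndufs4 fell by 0.67.

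The pair that rose were Cox7a2l, from 2.54 and 2.51 to 3.71 and 3.84 (1.25 ± 0.24, limma adjusted p 0.0129), and Ndufb5, a membrane-arm subunit of complex I, from 0.99 and 1.23 to 2.25 and 2.28 (1.16 ± 0.24, limma adjusted p 0.0179). Neither gene's EB day 4 arrays overlapped any other array of the study. The count of 8 fell to 0 when EB day 3 replicate 1 was left out, and again to 0 on dropping the second EB day 4 array. It fell to 4 on dropping the second EB day 3 array and to 2 on dropping the first EB day 4 array. Slide, scan day and scanner change together with the day in this comparison.

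Between embryoid bodies and monolayers of the same day no member was called. At day 1, 0 of 89 members were called by limma, when 0.131% of all genes were (0.0228% higher and 0.108% lower in EB). At an unadjusted p under 0.05 there were 0 members and 9.29% of all genes, and the members' lowest adjusted p was 0.653. At day 3, 0 were called, when 3.33% of all genes were (1.63% higher and 1.70% lower in EB), and 1 had an unadjusted p under 0.05, as did 17.6% of all genes. It was Cox7a1, higher in EB by 1.09 ± 0.28 (limma adjusted p 0.0774), with 2.74 and 2.62 in EB against 1.45 and 1.74 in ML. Without ML day 3 replicate 2, 6 members were higher in EB, when 14% of all genes were called. The test of whether the change from day 1 to day 3 differed between formats called 0 members by limma and 0.245% of all genes (0.154% higher and 0.0912% lower), with 0 members and 10.2% of all genes at an unadjusted p under 0.05. A p above the threshold with 2 arrays per group does not show that the formats are alike. EB and ML of the same day lie on different slides, so a difference such as that of Cox7a1 cannot be told apart from slide.

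More than 1 usable probe existed for 26 of the 89 genes, with 36 further probes in all. On ML day 1, 29 of these 36 moved the same way as the brightest probe that stands for the gene, 10 were called with it and 0 were called in the opposite direction. On EB day 4, 30 of 36 moved the same way and 1 was called with it. There 3 were not called although the brightest probe was, 6 were called although it was not, and 0 were called in the opposite direction. Some members had a called probe and another of opposite sign. Dmac2 changed by 0.94 on EB day 1 and its other probe by -1.1, and the mean of the pair by -0.08. Sdha changed by -0.71 on EB day 4, where its 2 other probes gave -0.30 and 0.54. Ndufaf4 changed by 1.08 on ML day 1, and its others by -0.04 and -0.73. Ndufv3 and Atp5pb were not called on EB day 1 (0.37 and 0.17), where a dimmer probe of each was called lower, at -0.83 and -1.95. The opposite probes of Dmac2, Sdha and Atp5pb had mean levels of -4.46, -4.17 and -5.78, near background.

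The citric acid cycle supplies the complexes with NADH and succinate. Of 14 genes of the citric acid cycle 0 were higher in any comparison with undifferentiated cells, when 8.09% to 18.8% of all genes were. On EB day 1, 1 was lower (5.45% of all genes) and on ML day 1, 2 were (6.41%). On EB day 3 and ML day 3, 3 each were lower (10.8% on both), and on EB day 4, 3 were (22.2%). Suclg2, a subunit of succinyl-CoA ligase, changed by -1.12 ± 0.24 on EB day 1 (limma adjusted p 0.0192), with 0.89 and 0.58 against 1.70 and 2.03. Citrate synthase (Cs), the entry enzyme, read 6.06 and 6.08 in undifferentiated cells and 5.19 and 5.39 on EB day 4, a change of -0.78 ± 0.18 (limma adjusted p 0.00790). Complex IV assembly factors had 3 of 11 higher on EB day 1 (8.09% of all genes) and 2 on ML day 1 (11.6%). Among them were Cox16 (1.12 and 1.34) and Surf1 (0.75 and 0.83), both needed to build the enzyme.

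Of 15 regulators of mitochondrial genes, 1 was higher and 2 lower on EB day 1 (8.09% and 5.45% of all genes). On ML day 1, 3 were higher and 2 lower (11.6% and 6.41%). Tfam packages mitochondrial DNA and activates its transcription. Its levels were 6.63 and 6.45 in undifferentiated cells, 5.75 and 5.38 on EB day 1 and 5.36 and 5.47 on ML day 1. Tfam read 5.21 and 5.37 on EB day 3, 5.05 and 5.56 on ML day 3 and 3.87 and 4.47 on EB day 4. It was lower in all 5 comparisons, with changes of -0.97 ± 0.27 on EB day 1 and -2.37 ± 0.27 on EB day 4 (limma adjusted p 0.0444 and 0.000268). Ppargc1a, a coactivator of mitochondrial genes, read -1.8 and -3.96 in undifferentiated cells and was well above background on no array of another group. It was at least 4.44-fold lower on EB day 1 and at least 4.54-fold lower on ML day 1 (limma adjusted p 0.0162 and 0.00786). The filter kept this gene through the undifferentiated group alone, so a lower level elsewhere was built in. It is among the regulators counted as lower on both days. Nrf1 read 0.06 and -0.09 in undifferentiated cells and -0.91 and -0.97 on EB day 4 (-0.92 ± 0.18, limma adjusted p 0.00391), and passed no test on day 1 or 3.

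Probes for 4 of the 13 subunits encoded in mitochondrial DNA were usable, and the array places those named COX2 and ATP6 on chromosome 1 and not on the mitochondrial genome, so that what they read is uncertain. The median change of the 4 was 0.11 on EB day 1 and -0.01 on ML day 1, and none was called on either day. On EB day 4 the median was -0.73 and ATP6 was called, at -0.97 ± 0.30 (limma adjusted p 0.0292).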

How the data were processed

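Single-colour Agilent mouse arrays measured total RNA from 12 samples in 6 groups. Per the labels' protocols, RNA was amplified and labelled with a low-input kit. Per the file headers, the deposited processed signal is a background-subtracted spot intensity, made with Feature Extraction 10.5.1.1 (undifferentiated), 10.7.3.1 (EB and ML days 1 and 3) or 10.7.1.1 (EB day 4), where the submitters' processing notes name 9.5.1.1; differences between versions were not tested. The authors' deposited table also holds intensities: each column has the same quantiles (median 36.6), so it was already quantile normalized, and its log2 values correlated with the scanner files at 0.999 to 1 per array. The deposited flags (other values) gave detection and outliers.

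Processed signal was put on the log2 scale, each array's 75th percentile was subtracted, outlier spots were left out and spots of one probe averaged. Probes well above background on both arrays of at least 1 group were kept (26176), and the brightest stood for a gene. A RefSeq accession gave the symbol of 26986 probes, a gene name that of 5935, and 8253 kept the file's name. The files carry 2 annotation versions: 118 member probes match in both, 6 in the older and 9 in the newer alone. One limma 3.58.1 model (R 4.3.3) of 6 group means over 12 arrays gave 11 two-sided comparisons with Benjamini-Hochberg adjustment within each; means and standard errors share one estimate of the spread with 6 residual degrees of freedom. The scripts were tested on simulated data.

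Named members were central subunits, isoforms, up to 10 called members with the largest rise and fall per comparison, and members whose probes disagreed. The members and lists were chosen with earlier results of these data known. The mean level of a group is over 2 arrays. One member's own result is not reported here.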

Additional observations from a re-analysis of the deposited data

How the results depend on the processing

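Directions were stable for nearly all called changes, and calls were not. Of 134 called changes, the number that kept their call was 126 with normexp background correction, 93 without a filter on dim probes, 61 with quantile normalization, 62 with the authors' values, 120 with the mean of a gene's probes and 7 when only the groups compared were fitted; with the strict filter on dim probes 129 of 129 did. The 2 that turned sign did so with the mean of a gene's probes: Dmac2 at -0.08 on EB day 1 and -0.02 on ML day 1, where a dim second probe enters.

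Counts of members called that moved by over 1.5 times were these. Against undifferentiated cells, quantile normalization and the authors' values each gave 5 on EB day 1, 11 on ML day 1 and 13 on ML day 3. Normexp gave 34 on ML day 3, 8 for ML day 3 against ML day 1, 19 for EB day 4 against EB day 3 and 1 for EB day 3 against ML day 3. No filter gave 12 on EB day 3 and 0 for ML day 3 against ML day 1. Fitting only the groups compared, which leaves 2 residual degrees of freedom, gave 1 on EB day 1, 0 on ML day 1, 2 on EB day 3, 0 on ML day 3, 4 on EB day 4, 0 for ML day 3 against ML day 1 and 1 for EB day 4 against EB day 3. The 8 arrays of scan day 2 alone gave 1 for ML day 3 against ML day 1 and 1 for EB day 3 against ML day 3. The cause of the shifts with background correction was not tested.

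Leaving out each array in turn, with the lone array assumed to vary like the other groups, gave 0 to 18 on EB day 1, 2 to 31 on ML day 1, 4 to 13 on EB day 3, 9 to 20 on ML day 3, 0 to 7 on EB day 4, 0 to 1 for EB day 3 against EB day 1, 0 to 15 for ML day 3 against ML day 1, 0 to 4 for EB day 4 against EB day 3 and 0 to 6 for EB day 3 against ML day 3. It gave 0 for EB day 1 against ML day 1 and for the difference between formats.

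The clone number was not shown to pair the samples: the correlations of the clone differences over all genes between groups ran from -0.157 to 0.226 over 15 pairs of groups. With clone number as a replicate block the counts were 24 on EB day 1, 37 on ML day 1, 18 on EB day 3, 19 on ML day 3, 13 on EB day 4, 3 for ML day 3 against ML day 1 and 7 for EB day 4 against EB day 3. The block left 0 for EB day 3 against EB day 1, for both comparisons of formats and for their difference. Slide as a block was not run, since a slide holds both groups of each day comparison and its term cancels there.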

Other observations

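A further list held genes of pyruvate entry, electron entry from fatty acid oxidation, the inner and outer membrane carriers and uncoupling, 11 of them tested. Against undifferentiated cells, 1 was higher and 5 were lower on EB day 4, when 40.9% of all genes were called (18.8% higher and 22.2% lower). The pyruvate dehydrogenase subunits Pdha1 and Pdhb changed by -0.99 ± 0.25 and -1.02 ± 0.23 (limma adjusted p 0.0119 and 0.00717), and Pdk1, the kinase that switches that enzyme off, by -2.12 ± 0.47 (limma adjusted p 0.00666). The ADP/ATP carriers went opposite ways: Slc25a4 by 0.81 ± 0.21 and Slc25a5 by -1.1 ± 0.20 (limma adjusted p 0.0151 and 0.00290). On EB day 1 and ML day 1, 0 of the 11 were called, when 13.5% and 18.0% of all genes were.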
